A study of Homo sapiens with 12 samples.

Results

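The 43 genes described here are DNA repair genes of 7 pathways, chosen by name from the gene names of the deposited tables. They are 12 genes of homologous recombination, 6 of the Fanconi pathway, 6 of end joining, 3 of mismatch repair, 6 of base excision repair, 6 of nucleotide excision repair and 4 checkpoint kinases. All 43 were found among 19037 transcripts with footprint counts. They were measured in xenografts of 22Rv1, an established human prostate cancer cell line, grown under the skin of male immunodeficient NSG mice that were 6 to 8 weeks old at injection. Mice with tumours of 70 to 100 mm3 were given zotatifin, an inhibitor of the RNA helicase eIF4A, at 0.3 mg/kg into the peritoneum in 5% dextrose, or 5% dextrose alone as vehicle. Tumours were taken after 6 h and gave both ribosome footprints, the messenger fragments that ribosomes protect, and total RNA. Each of the 4 groups held 3 libraries, which the labels call biological replicates, so that each tumour had 1 library per assay.

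DNA repair is organised by the kind of lesion. Breaks through both strands are rejoined directly by end joining or copied from the sister chromatid by homologous recombination, and crosslinks between strands are unhooked through the Fanconi pathway. Mismatch repair removes errors of replication, base excision repair removes single damaged bases, nucleotide excision repair cuts out bulky damage, and the checkpoint kinases ATM, ATR, CHEK1 and CHEK2 hold the cell cycle while repair proceeds. Repair by homologous recombination is known in prostate cancer for inherited and acquired mutations of BRCA2 and ATM. Zotatifin is known to clamp eIF4A onto purine-rich stretches near the start of messengers, so its effect is read in footprints relative to RNA.

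Total counts were 5761921 to 8153674 per RNA library and 838135 to 2013968 per footprint library, the 3 zotatifin footprint libraries being the shallowest. All 8 prostate epithelial markers tested (such as KLK3 and KRT8) were found in both assays. In footprints 1 of these 8 rose and 1 fell, and in RNA 0 were called. Of 10 cycling cell markers 0 were called in either assay. The 10 fibroblast markers together made up 462 to 797 CPM of footprints (CPM is a count scaled to the library's total after TMM normalisation) in the vehicle tumours and 140 to 259 CPM in the zotatifin tumours. In RNA they summed to 216 to 364 CPM and 69.4 to 131 CPM. Of the 6 fibroblast markers tested, 5 fell in footprints and 4 fell in RNA. The 7 myeloid markers summed to 74.4 to 343 CPM of footprints in vehicle and 34.9 to 63.8 CPM in zotatifin tumours, with CD14 at 0, and no fibroblast marker was at 0. In a bulk tumour, fewer cells of a type and less RNA per cell cannot be told apart. The part of host cells in the repair gene values was not tested.

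Few of the repair genes passed the test after 6 h of zotatifin. A call is an adjusted p under 0.05 in edgeR's quasi-likelihood test with Benjamini-Hochberg adjustment over all genes tested, and "adjusted p" below always means this test. In footprints 42 members were tested, 1 rose (XPC) and 0 fell, where 7.14% of 9544 genes were called (3.22% rose and 3.92% fell). In RNA all 43 were tested, 1 rose (XRCC3) and 0 fell, where 1.72% of 13118 genes were called (0.808% rose and 0.907% fell). In translational efficiency (TE), the footprint change relative to the RNA change, 0 of 42 were called, where 2.04% of 9454 genes were (0.444% rose and 1.6% fell). At an unadjusted p under 0.05 there were 4 members in footprints (9.52%), 9 in RNA (20.9%) and 4 in TE (9.52%), against 22.1%, 18.3% and 15.1% of all genes tested. DESeq2 called 0 members in footprints, 1 in RNA and 0 in TE. The TE fit above treats the 12 libraries as independent. With the tumour as a block, which pairs both libraries of a tumour, 1 of 42 members was called (FANCI, which fell). That fit called 9.14% of the 9454 genes (3.14% rose and 6% fell). A single call among 42 or 43 members is near these shares or below them, and is not a result about the members as a group.

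The precision of these values limits how large a missed change, relative to most genes tested, could be. Each assay was scaled to its own library totals, so a change shared by most genes would not show in these values. The 95% interval of the change lay inside a 2-fold change in either direction for 42 of 42 members in footprints (82.8% of all genes tested). It did so for 42 of 43 in RNA (81.4%), the exception being XRCC4, and for 37 of 42 in TE (71%). The 5 members whose TE interval reached beyond a 2-fold change were ERCC1, OGG1, XRCC2, XRCC3 and XRCC4. Members had a median of 299.8 RNA counts and 71.7 footprint counts per library.

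Over all members the median log2 change was −0.065 in footprints, −0.037 in RNA and −0.071 in TE, against 0.0030, −0.0023 and −0.014 over all genes tested. In footprints 15 members had an estimate above 0 and 27 below, while 50.3% of all genes tested lay above. No pathway was tested as a set, and the medians describe these members, not the pathways at large. The footprint median of the members was −0.19 for homologous recombination, −0.11 for Fanconi genes, −0.039 for end joining, −0.065 for mismatch repair and −0.26 for the checkpoint kinases. It was 0.17 for base excision and 0.15 for nucleotide excision repair. The medians of other genes of the same pathways, from a wider list described further on, were −0.012 for homologous recombination, −0.050 for Fanconi, 0.073 for end joining and −0.042 for checkpoint genes, where 8 lay above 0 and 8 below. They were 0.089 for base excision and 0.11 for nucleotide excision genes, and 0.21 for 2 mismatch genes. The RNA medians of the members were closer to 0 for most pathways, at −0.080, −0.055, 0.021, −0.061 and −0.12 in the same order, then 0.0041 for base excision and 0.14 for nucleotide excision repair. Those of the other genes were 0.18, 0.29, −0.0325, −0.23 and 0.0085, then 0.19 and −0.058. The TE medians of the members were −0.031, −0.033, −0.045, −0.10 and −0.15, then 0.14 and −0.11. The other genes had TE medians of −0.20, −0.33, 0.054, 0.44 and −0.12, then −0.091 and 0.095. In RNA and TE several of these medians differed in sign between the members and the other genes. In footprints those of end joining and mismatch repair did.

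**Figure D1:**
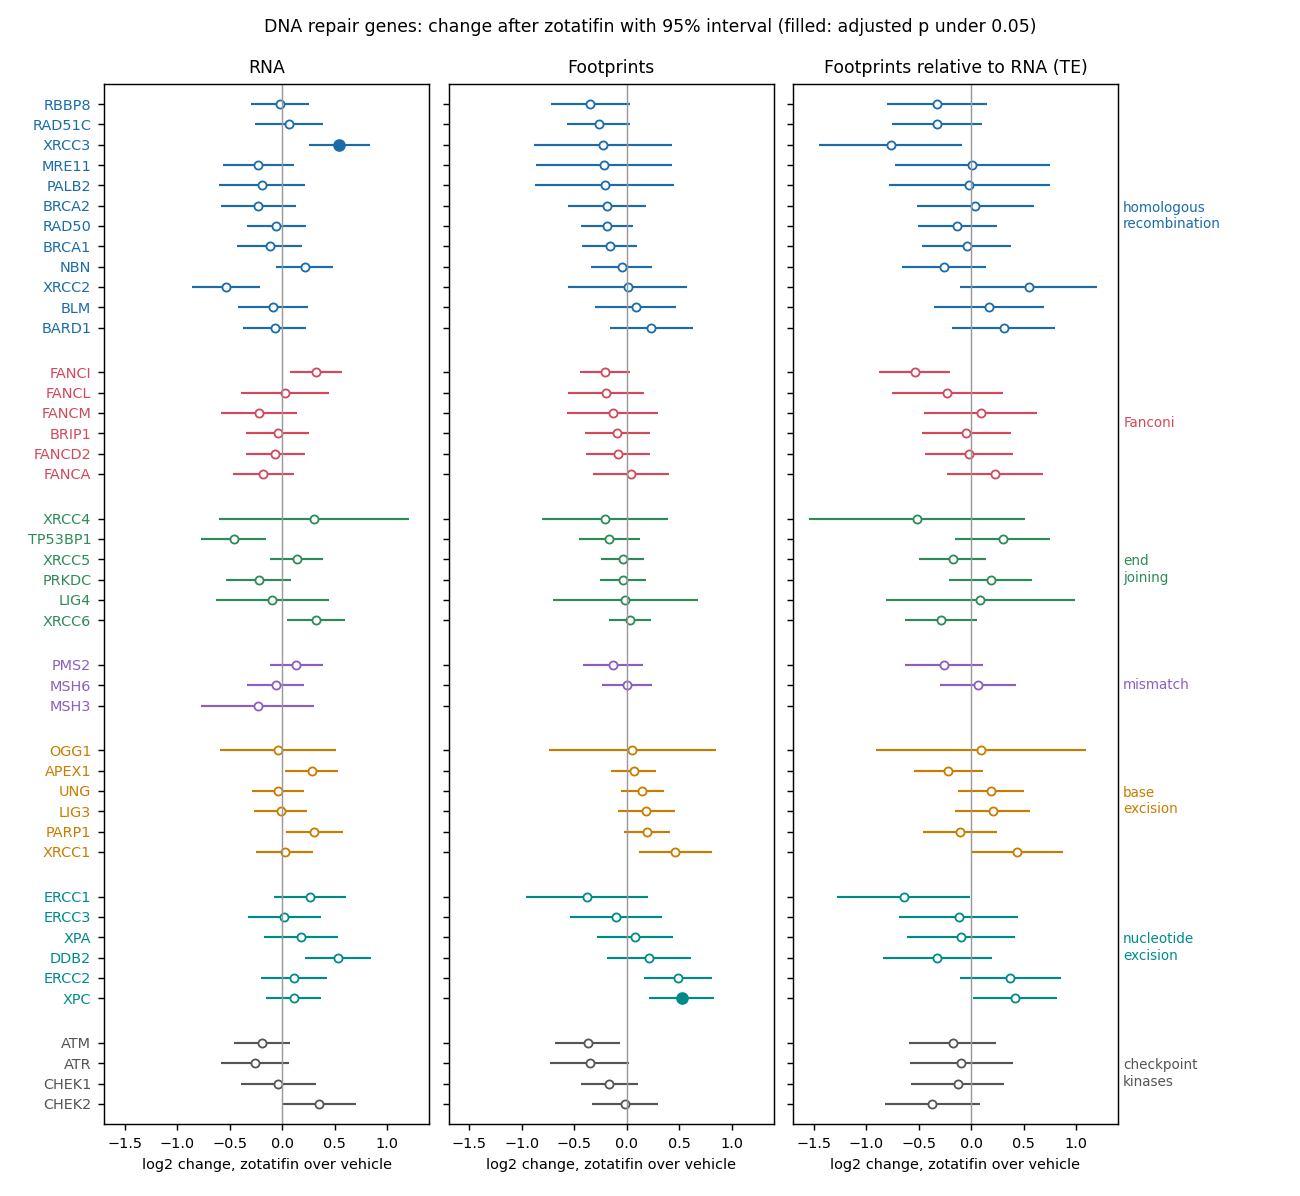
Log2 change of each member, zotatifin over vehicle (horizontal axis), with its 95% interval, in RNA, footprints and TE, grouped and coloured by pathway; 3 tumours per group. Filled points have an adjusted p under 0.05: XRCC3 in RNA (0.54) and XPC in footprints (0.52), and MSH3 has no footprint or TE value because it failed the count filter.

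Nucleotide excision repair held the member that rose in footprints. XPC, the sensor that finds helix-distorting damage across the genome, had footprint levels of 46.2, 45.5 and 50.8 CPM in the vehicle tumours and 72.9, 63.8 and 67.3 CPM in the zotatifin tumours. Every zotatifin tumour stood above every vehicle tumour, which 12.9% of all genes tested also showed. The means were 47.5 ± 2.89 and 68.0 ± 4.6 CPM (SD, n = 3 each), a log2 change of 0.52 ± 0.15 (SE, adjusted p = 0.0303). XPC RNA was 62.4, 64.2 and 60.8 CPM in vehicle and 74.8, 60.1 and 66.7 CPM in zotatifin tumours. The RNA groups overlapped, and the RNA change was 0.11 (adjusted p = 0.695). The TE change of XPC was 0.42 with a 95% interval of 0.018 to 0.81 and did not pass (adjusted p = 0.302). The authors' deposited table lists XPC as raised in TE, with an FDR of 0.0242. The footprint call was lost when any 1 library other than the second zotatifin library was left out (adjusted p up to 0.131), and with DESeq2. XPC lies on chromosome 3 at 14145147 to 14178601 (GRCh38.p14) and overlaps the antisense gene XPC-AS1, and the strand setting of the counting is not given in the sources used here.

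The other damage sensor, DDB2, which recognises ultraviolet lesions, had its larger estimate in RNA. Its RNA was 25.7, 31.4 and 34.6 CPM in vehicle and 41.5, 47.2 and 44.6 CPM in zotatifin tumours. The groups were apart (12.3% of all genes tested were so in this direction), and the log2 change of 0.53 ± 0.15 did not pass (adjusted p = 0.068). DDB2 footprints were 33.9, 24.4 and 34.3 CPM in vehicle and 37.3, 27.0 and 40.1 CPM in zotatifin tumours, with overlap and a change of 0.21 (adjusted p = 0.571).

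The helicase subunits of TFIIH, which open the helix around the lesion, gave different values. ERCC2 footprints were 40.3, 42.7 and 41.3 CPM in vehicle and 55.5, 51.5 and 64.7 CPM in zotatifin tumours. These groups did not overlap, but the log2 change of 0.49 ± 0.16 was short of the threshold (adjusted p = 0.0591). ERCC3, the other helicase, had a footprint change of −0.10 and the lowest RNA change of the pathway, 0.018. ERCC1, part of the nuclease that cuts on one side of the lesion, had the lowest footprint change of all members, −0.38 (adjusted p = 0.469). Its TE change of −0.64 had an interval of −1.28 to −0.0071 (adjusted p = 0.323). XPA, which checks the damage, had changes of 0.18 in RNA and 0.078 in footprints. All 6 nucleotide excision members had RNA estimates above 0, although edgeR called 0 (1 at an unadjusted p under 0.05) and DESeq2 0, and 49.7% of all genes tested lay above 0. Of 19 other nucleotide excision genes, 8 lay above 0 and 11 below in RNA, with a median of −0.058. Without the first vehicle library 4 of 6 lay above 0, and without the first zotatifin library 5 of 6.

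**Figure D2:**
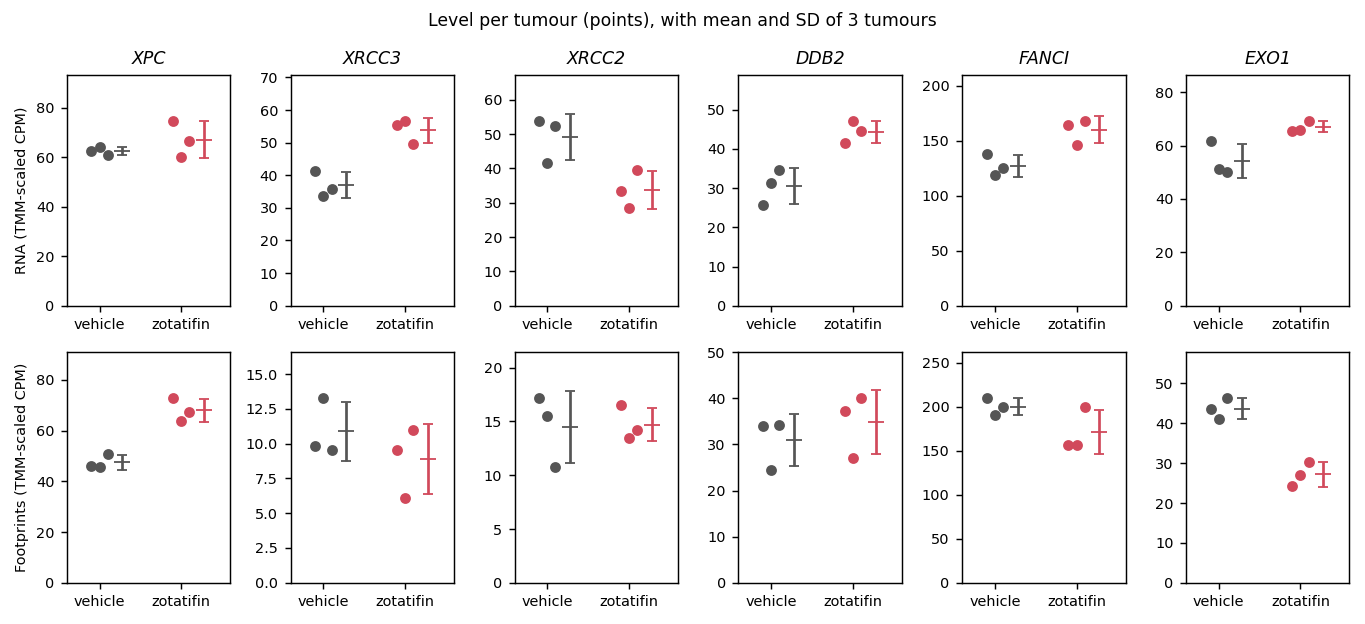
RNA (top) and footprint (bottom) levels in TMM-scaled CPM for 6 genes in each of the 3 vehicle and 3 zotatifin tumours, with the mean and SD beside the points; each vertical axis starts at 0. XPC footprints and XRCC3 RNA are higher in every zotatifin tumour, and EXO1, which is not a member, has lower footprints in all 3.

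In base excision repair all 6 members had footprint estimates above 0, from 0.055 to 0.46, and 0 were called. Of 15 other base excision genes tested in footprints, 10 lay above 0 and 5 below, and 50.3% of all genes tested lay above. Without the second vehicle library 5 of the 6 members lay above 0. XRCC1, the scaffold that gathers the enzymes of single-strand break repair, had the largest of these changes. Its footprints were 33.4, 43.3 and 42.6 CPM in vehicle and 61.6, 46.6 and 53.7 CPM in zotatifin tumours. The lowest zotatifin tumour lay just above the highest vehicle tumour, and the change of 0.46 ± 0.17 did not pass (adjusted p = 0.0959). XRCC1 RNA changed by 0.024 (95% interval −0.25 to 0.30), and its TE change was 0.44 (adjusted p = 0.336).

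The enzymes that act before and after XRCC1 had smaller estimates in footprints. LIG3, the ligase bound to XRCC1, had footprints of 78.1, 77.2 and 73.7 CPM in vehicle and 83.3, 89.5 and 88.6 CPM in zotatifin tumours, apart but with a change of 0.19 ± 0.13 (adjusted p = 0.442). UNG, which removes uracil from DNA, had 277, 285 and 262 CPM in vehicle and 302, 310 and 304 CPM in zotatifin tumours, again apart, with a change of 0.15 ± 0.10 (adjusted p = 0.417). LIG3 and UNG had RNA estimates of −0.016 and −0.037. PARP1, the poly(ADP-ribose) polymerase that marks breaks and is the target of PARP inhibitors, had the highest RNA change of the pathway. Its RNA was 532, 660 and 694 CPM in vehicle and 832, 700 and 798 CPM in zotatifin tumours, without overlap, at 0.30 ± 0.13 (adjusted p = 0.217). Its footprint change was 0.20 (95% interval −0.022 to 0.42). APEX1, the endonuclease that cuts at sites without a base, had an RNA change of 0.28 (adjusted p = 0.220), a footprint change of 0.066 and the lowest TE change of the pathway, −0.22. OGG1, the glycosylase for oxidised guanine, had the lowest RNA change, −0.042, at 6.26 to 11.5 RNA CPM per library, and its footprint interval of −0.74 to 0.85 was the widest of all members.

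Homologous recombination held the member that rose in RNA, and the paralogs XRCC2 and XRCC3 had RNA estimates of opposite sign. XRCC3 RNA was 41.3, 33.7 and 35.9 CPM in vehicle and 55.3, 56.7 and 49.5 CPM in zotatifin tumours. The groups did not overlap, and the means of 37.0 ± 3.88 and 53.8 ± 3.82 CPM (SD, n = 3 each) gave a log2 change of 0.54 ± 0.14 (adjusted p = 0.0496). That value lies at the threshold. The call was lost whichever of the 6 libraries was left out (adjusted p up to 0.171) and with RLE scaling, and it held with DESeq2 (adjusted p = 0.0346). XRCC3 footprints were 9.83, 13.3 and 9.53 CPM in vehicle and 9.55, 6.13 and 11.0 CPM in zotatifin tumours, from 5 to 24 counts per library. They overlapped, with a change of −0.22 (95% interval −0.89 to 0.44). The TE change of XRCC3, −0.77, was the lowest of all members and did not pass (adjusted p = 0.255). The authors' deposited table has XRCC3 as lowered in TE with an FDR of 0.0413. XRCC3 lies on chromosome 14 at 103697617 to 103715451 and overlaps KLC1, so reads from both genes may not be separable.

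XRCC2 RNA was 53.9, 41.6 and 52.4 CPM in vehicle and 33.5, 28.5 and 39.6 CPM in zotatifin tumours. Every zotatifin tumour lay below every vehicle tumour (10.9% of all genes tested were so in this direction), and the log2 change of −0.54 ± 0.16 did not pass (adjusted p = 0.0737). It was the lowest RNA change of all members. XRCC2 footprints overlapped, at 17.2, 15.5 and 10.8 CPM in vehicle and 16.5, 13.5 and 14.2 CPM in zotatifin tumours, with a change of 0.0094 (95% interval −0.56 to 0.58). Its TE change of 0.55 was the highest of all members (adjusted p = 0.429).

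The promoters of these paralogs were compared because their RNA estimates had opposite signs. The 250 bases before the RefSeq start site are printed 5′ to 3′ on the gene's strand (GRCh38.p14, both on the minus strand). XRCC3 covers chr14:103715452-103715701, with capitals marking CCAAT or its reverse complement ATTGG. XRCC2 covers chr7:152676142-152676391, with capitals marking the cyclic AMP response element TGACGTCA.
XRCC3: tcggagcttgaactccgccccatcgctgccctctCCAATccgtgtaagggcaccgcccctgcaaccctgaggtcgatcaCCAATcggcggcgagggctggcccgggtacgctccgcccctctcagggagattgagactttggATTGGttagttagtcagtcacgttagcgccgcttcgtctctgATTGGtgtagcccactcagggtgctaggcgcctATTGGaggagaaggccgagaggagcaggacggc
XRCC2: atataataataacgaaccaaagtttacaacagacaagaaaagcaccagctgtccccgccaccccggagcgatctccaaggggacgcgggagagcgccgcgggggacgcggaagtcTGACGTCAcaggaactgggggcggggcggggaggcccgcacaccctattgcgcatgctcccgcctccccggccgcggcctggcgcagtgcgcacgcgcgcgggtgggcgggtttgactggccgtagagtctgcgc

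The XRCC3 window holds 5 CCAAT matches on both strands, at 216, 171, 108, 66 and 33 bases before the start. At least that many were found in 66 of 20760 windows (0.318%), and in no other member's window among 39 members with one. XRCC2 holds no CCAAT match, and its TGACGTCA begins 135 bases before the start. Over 39 members, CCAAT was found in 59% of windows (43.1% of genes tested for TE, 32.7% of all windows). The NRF1-type motif (GCGC and GCGC with 2 bases of any kind between) was found in 30.8% (18.1% and 9.31%), the ETS-type motif CCGGAAGT in 17.9% (9.93% and 4.5%) and TGACGTCA in 10.3% (3.59% and 1.99%). The E2F-type motif TTTCCCGC was found in 2.56% (3.3% and 1.73%), and the GC box GGGCGG in 76.9% (76.1% and 54.6%). The XRCC3 and XRCC2 windows each held 3 GC boxes, and XRCC2 also held 1 NRF1-type match. The member shares of ETS-type, TGACGTCA and E2F-type rest on 7, 4 and 1 of 39 windows. Among 75 other repair genes with a window, CCAAT was found in 49.3%, the NRF1-type motif in 20% and the ETS-type motif in 13.3%. TGACGTCA was found in 4% of these 75, the E2F-type motif in 4% and the GC box in 80%. No motif share was tested. All were searched on both strands, a match describes letters and not a binding site, and CCAAT can lie inside longer motifs. In the first 50 transcribed bases of these starts the longest run of purines had a median of 6 bases in members and 6 in genes tested for TE. It was 11 bases in XRCC3, 10 in ERCC2, 8 in DDB2, 7 in XRCC2, 5 in XPC and 3 in XRCC1. In EXO1, which is not a member, it was 7. A relation of these runs to the TE changes was not tested.

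The other members of homologous recombination had 0 calls. In footprints 9 of all 12 members of the pathway, XRCC3 included, had estimates below 0. Of these, 2 (BRCA1 and RAD50) had groups that did not overlap, where 13.5% of all genes tested lay apart in this direction. BRCA1, the ubiquitin ligase that directs breaks into this pathway, had footprints of 101, 103 and 102 CPM in vehicle and 88.5, 90.7 and 93.8 CPM in zotatifin tumours. The replicates were close together, and the change was −0.16 ± 0.13 (adjusted p = 0.492). Its partner BARD1 had the highest footprint change of the pathway, 0.24 (adjusted p = 0.517). RAD50, which with MRE11 and NBN tethers the broken ends, had 143, 142 and 157 CPM in vehicle and 135, 114 and 135 CPM in zotatifin tumours, at −0.19 ± 0.12 (adjusted p = 0.380). MRE11 had −0.22 and NBN −0.049 in footprints. RBBP8, which starts resection of the ends, had the lowest footprint change of the pathway, −0.35 ± 0.18 (adjusted p = 0.275), with an RNA change of −0.023. BRCA2, a tumour suppressor of this pathway, had changes of −0.23 in RNA, −0.19 in footprints and 0.040 in TE. PALB2, which joins BRCA1 to BRCA2, had −0.19 in RNA and −0.21 in footprints. RAD51C, the third paralog, had a footprint change of −0.27 ± 0.15 (adjusted p = 0.285), with 0.063 in RNA. BLM, the helicase that dissolves joined chromatids, had 0.085 in footprints.

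In the Fanconi pathway FANCI was the member with the clearest split between assays. FANCI and FANCD2 form the pair that is ubiquitinated at a crosslink. FANCI RNA was 138, 119 and 125 CPM in vehicle and 164, 146 and 168 CPM in zotatifin tumours. The RNA groups were apart, with a log2 change of 0.33 ± 0.12 (adjusted p = 0.152). FANCI footprints were 210, 191 and 200 CPM in vehicle and 157, 157 and 200 CPM in zotatifin tumours. The third zotatifin tumour reached the vehicle range, and the change was −0.21 ± 0.12 (adjusted p = 0.294). The TE change of −0.54 ± 0.17 did not pass (adjusted p = 0.0877). With the tumour as a block, which uses that both libraries came from the same lysate, FANCI fell, at a log2 change of −0.55 ± 0.13 (adjusted p = 0.00234). That fit called 9.14% of all genes tested (3.14% rose and 6% fell), and FANCI was the only member it called among 42. The authors' deposited table has FANCI at −0.34 on the natural log scale with an FDR of 8.89e-07. FANCI overlaps POLG on chromosome 15.

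FANCD2 did not share the split, with −0.066 in RNA, −0.081 in footprints and −0.019 in TE (95% interval −0.44 to 0.40). FANCA, of the core complex, had the highest footprint change of the pathway, 0.041, and the highest TE change, 0.22, with an RNA change of −0.18. FANCA RNA was 40.4, 49.1 and 42.8 CPM in vehicle and 38.1, 39.1 and 39.4 CPM in zotatifin tumours, apart but not called (adjusted p = 0.514). FANCM, which anchors the core complex to DNA, had the lowest RNA change, −0.22. FANCL, its ubiquitin ligase, had −0.20 in footprints and 0.028 in RNA, and BRIP1, a helicase bound by BRCA1, had −0.089 and −0.044.

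In end joining 0 of 6 members were called in any of the 3 comparisons. XRCC5 and XRCC6, the Ku subunits that cap a broken end, had footprint changes of −0.039 (95% interval −0.24 to 0.17) and 0.031 (−0.17 to 0.23). XRCC6 was the highest of the pathway in footprints and in RNA. Its RNA was 369, 507 and 506 CPM in vehicle and 559, 626 and 543 CPM in zotatifin tumours, apart, with 0.32 ± 0.14 (adjusted p = 0.206). PRKDC, the kinase that Ku recruits, had −0.039 in footprints and −0.22 in RNA, where the second zotatifin tumour (464 CPM) lay below the other 5 (706 to 788 CPM). XRCC4, the scaffold of the ligase LIG4, had the lowest footprint change, −0.20, and the lowest TE change, −0.52, from 8 to 33 RNA counts per library. LIG4 had −0.096 in RNA and −0.015 in footprints. TP53BP1, which protects ends from resection, had RNA of 164, 117 and 113 CPM in vehicle and 98.7, 78.0 and 108 CPM in zotatifin tumours. These groups were apart, and the change of −0.46 ± 0.15 did not pass (adjusted p = 0.107). Its footprint change was −0.17, and its TE change of 0.30 was the highest of the pathway (adjusted p = 0.555).

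In mismatch repair MSH6, which reads single mismatches, had footprints of 171, 191 and 171 CPM in vehicle and 196, 158 and 177 CPM in zotatifin tumours, with a change near 0 (95% interval −0.24 to 0.24). PMS2, an endonuclease of mismatch repair, had −0.13 in footprints, 0.13 in RNA and −0.26 in TE (adjusted p = 0.522), and has near-identical pseudogene copies. MSH3, which reads larger loops, passed the filter in RNA and not in footprints. It had 4 footprint counts in the 3 vehicle tumours together and 7 in the 3 zotatifin tumours, against 448 RNA counts over the 6 tumours. As a share of each assay's total, its footprints were 0.0621 of its RNA in vehicle (95% interval from counting error 0.0168 to 0.161) and 0.197 (0.0784 to 0.413) in zotatifin tumours. The intervals overlap. Of 13118 genes that passed the RNA filter 5.99% had a lower ratio in vehicle, and of 3579 with an RNA count within 2-fold of that of MSH3 8.24% did. The RNA change of MSH3 was −0.24 (adjusted p = 0.665).

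All 4 checkpoint kinases had footprint estimates below 0, and 0 were called. ATM, the kinase activated by double-strand breaks, had footprints of 95.8, 73.8 and 85.1 CPM in vehicle and 65.9, 52.7 and 74.4 CPM in zotatifin tumours. The ranges overlapped narrowly, and the change was −0.37 ± 0.15 (adjusted p = 0.136). ATR, the kinase of stalled forks, had 51.6, 45.0 and 37.5 CPM in vehicle and 40.8, 29.4 and 34.3 CPM in zotatifin tumours, at −0.35 ± 0.18 (adjusted p = 0.253). Their RNA changes were −0.20 and −0.26. CHEK1, the kinase downstream of ATR, had −0.17 in footprints and −0.039 in RNA. CHEK2, downstream of ATM, had −0.018 in footprints and the highest RNA change, 0.35 (adjusted p = 0.269), and has pseudogene copies. The 4 TE changes lay between −0.37 (CHEK2) and −0.096 (ATR). The pathway's footprint median of −0.26 was −0.14 without the first vehicle library. CHEK2 was above 0 without the third vehicle or the first zotatifin library.

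**Figure D3:**
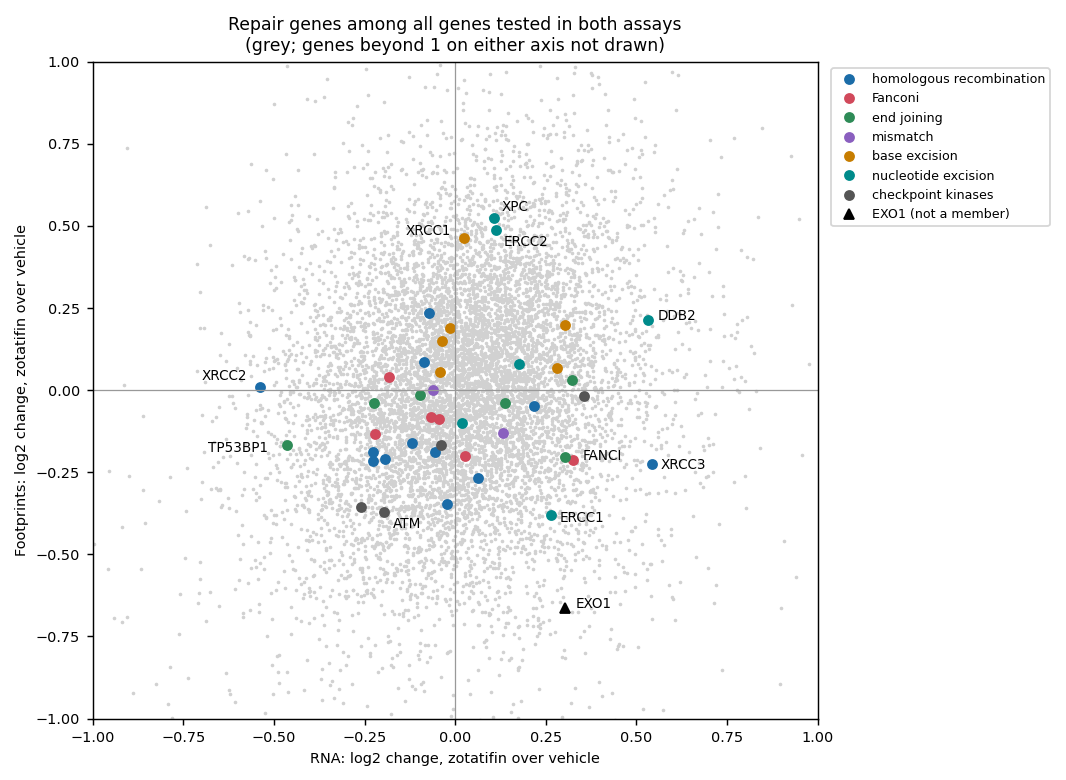
Log2 change in RNA (horizontal) against log2 change in footprints (vertical), zotatifin over vehicle, for members coloured by pathway, with EXO1 as a triangle and all genes tested in both assays in grey. Members lie within the grey cloud, XPC, ERCC2 and XRCC1 near 0 in RNA and between 0.46 and 0.52 in footprints, and XRCC3 and XRCC2 at 0.54 and −0.54 in RNA with footprints closer to 0.

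In the vehicle tumours members differed in how many footprints they carried for their RNA. For each vehicle tumour the log2 ratio of footprint CPM to RNA CPM was taken within a gene, so that gene length cancels if both assays counted the same part of the transcript. The median member stood at 0.23, against −0.13 over 9454 genes, and 27 of 42 members lay above the 50th percentile. The medians of the members were 0.91 for end joining, 0.93 for checkpoint kinases, 0.47 for Fanconi genes, 0.39 for the 2 mismatch genes, 0.11 for base excision, −0.12 for nucleotide excision and −0.46 for homologous recombination. The SD of the median over the 3 vehicle tumours was between 0.055 (homologous recombination) and 0.27 (base excision), and it was 0.16 for nucleotide excision. The medians of base excision and nucleotide excision lay within 1 SD of the −0.13 of all genes tested. This SD is a spread between tumours, not between genes. Other genes of the same pathways had another order, with −0.68 for 7 end joining genes, −0.45 for 16 checkpoint genes, −0.31 for 8 Fanconi genes, 0.11 for 17 genes of homologous recombination, −0.040 for 15 base excision genes, 0.19 for 2 mismatch genes and 0.51 for 19 nucleotide excision genes. The order above therefore belongs to the chosen members. These are descriptions with no test.

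Within pathways the spread was wide. CHEK1 had ratios of 2.08, 1.97 and 2.19 in the vehicle tumours, at percentile 96.6, and CHEK2 a mean of 1.42 ± 0.22 (SD, n = 3), while ATM had 0.15 ± 0.17 and ATR 0.44 ± 0.24. XRCC5 stood at 1.77 ± 0.13 and XRCC6 at 1.30 ± 0.19, but TP53BP1 at −0.43 ± 0.15. XRCC4 had the highest mean of all members, 2.41 ± 0.65, on few RNA counts. FANCL had 1.69 ± 0.21 and FANCA −0.14 ± 0.20. In homologous recombination XRCC2 (−1.66 ± 0.42), XRCC3 (−1.61 ± 0.36), RBBP8 (−1.34 ± 0.10) and MRE11 (−1.22 ± 0.32) were the 4 lowest of all members. Neighbours among these 4 did not differ beyond their SD. RAD51C, a paralog of XRCC2 and XRCC3, had 1.35 ± 0.23. In zotatifin tumours XRCC3 had ratios of −2.35, −2.93 and −2.01, at percentile 3.58 against 12.6 in vehicle, and CHEK1 was at 96.6 in both.

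**Figure D4:**
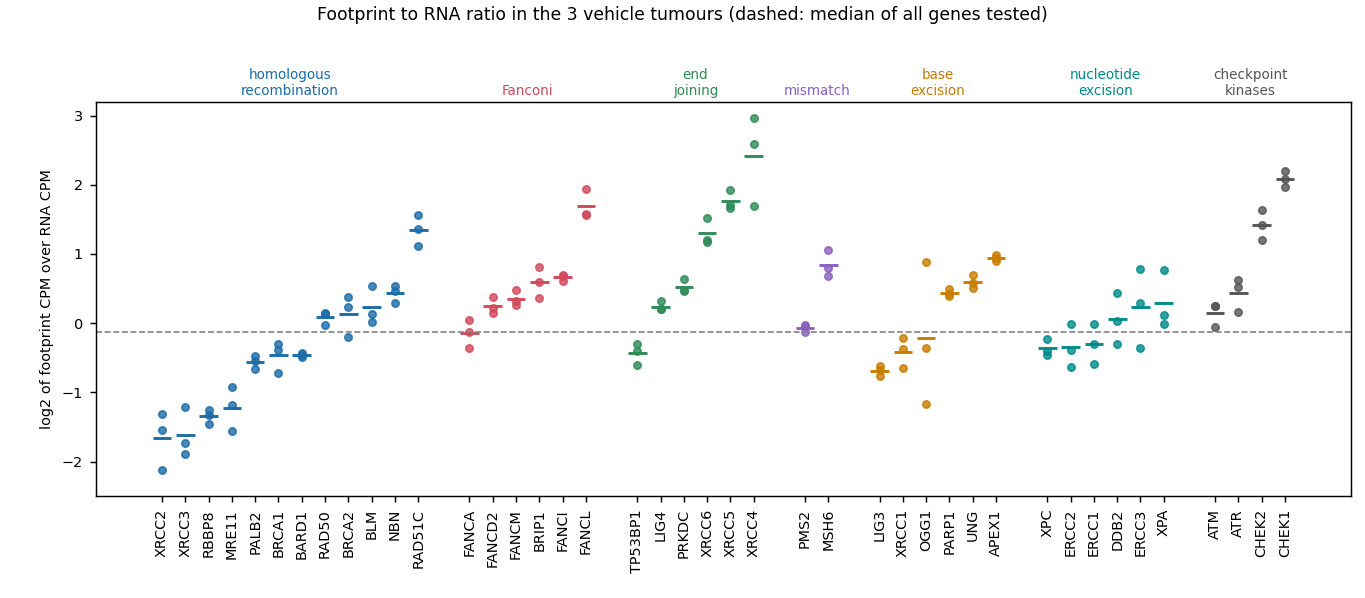
Log2 of footprint CPM over RNA CPM (vertical axis) for 42 members in each of the 3 vehicle tumours (points) with their mean (bar), ordered within pathway. The dashed line is the median of all genes tested (−0.13), with most checkpoint and end joining genes above it and XRCC2, XRCC3, RBBP8 and MRE11 far below.

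The authors' deposited tables use other tests. Their RNA table calls 1 member, XRCC3 (adjusted p = 0.0346), where 2.47% of 12661 genes with an adjusted p were called. Their TE table calls 10 of 43 members, where 18.3% of 11446 genes were called (8.09% raised and 10.2% lowered). In the authors' deposited table the members raised were 5 (PRKDC, TP53BP1, XRCC1, UNG and XPC) and those lowered were 5 (XRCC3, FANCI, XRCC5, XRCC6 and APEX1). In the fit over 12 libraries the TE changes of XRCC5, XRCC6 and PRKDC were −0.18, −0.29 and 0.18, and the adjusted p was 0.639, 0.425 and 0.705.

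A wider list of 87 repair genes from the same pathways, written from textbook knowledge, was read in the same fits. In footprints 84 were tested, 1 rose (XAB2) and 2 fell (EXO1 and GTF2H2), fewer than the 7.14% called over all genes tested. In RNA 87 were tested and edgeR called 0, with 17 (19.5%) at an unadjusted p under 0.05, against 18.3% of all genes tested, while DESeq2 called 2 (FANCG and MDC1). In TE 84 were tested, 0 rose and 1 fell (EXO1). The medians were 0.013 in footprints, 0.074 in RNA and −0.092 in TE.

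EXO1, the nuclease that extends resection and also serves mismatch repair, had footprints of 43.7, 41.1 and 46.4 CPM in vehicle and 24.3, 27.0 and 30.4 CPM in zotatifin tumours. The groups were far apart, at −0.66 ± 0.18 (adjusted p = 0.0243). EXO1 RNA was 61.7, 51.4 and 50.1 CPM in vehicle and 65.5, 66.0 and 69.3 CPM in zotatifin tumours, with 0.30 ± 0.13 (adjusted p = 0.219). Its TE change was −0.97 ± 0.22 (adjusted p = 0.0169), a call lost without 3 of the 6 tumours (adjusted p up to 0.113). Its footprint call was lost without 4 of the 6 libraries (up to 0.116) and with DESeq2. GTF2H2, a subunit of TFIIH with a near-identical copy (GTF2H2C), had a footprint change of −0.45 (adjusted p = 0.0152), lost without 2 of the 6 libraries (up to 0.120). XAB2, a splicing factor that binds XPA, had 0.49 (adjusted p = 0.0350), lost without 4 of the 6 (up to 0.257) and with DESeq2.

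With the tumour as a block, 7 of the 84 other repair genes were called in TE, 1 raised and 6 lowered, a share near the 9.14% called over all genes tested (3.14% rose and 6% fell). MDC1, the adaptor that binds marked chromatin at breaks, rose by 0.65 ± 0.13 (adjusted p = 0.000388). MDC1 RNA was 507, 442 and 430 CPM in vehicle and 367, 222 and 340 CPM in zotatifin tumours, while its footprints overlapped, at 195, 185 and 215 CPM and at 204, 186 and 237 CPM. The genes that fell were EXO1 (−0.97), RAD17 (−0.87), FANCG (−0.65), TDG (−0.48), UBE2T (−0.41) and RAD23B (−0.38). UBE2T is the conjugating enzyme that works with FANCL on FANCI and FANCD2, and FANCG belongs to the core complex. FANCG RNA was 52.8, 52.5 and 55.8 CPM in vehicle and 68.3, 75.2 and 81.8 CPM in zotatifin tumours, at 0.48 ± 0.13 (adjusted p = 0.0538).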

How the data were processed

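Groups came from the sample titles, which the treatment field contradicts for 6 of 12 samples (titles and column names were followed, taking the number that marks treated columns as a code for zotatifin). The authors deposited raw counts per transcript for both assays. Their RNA table gives a mean level as a signal, a log2 fold change, a Wald score and a p-value, and their deposited TE table gives an estimate on the natural log scale with an FDR. Regressed on the log2 changes of 1566 well-counted genes, it had weights of 0.665 for footprints and −0.666 for RNA, close to 0.693, the natural log of 2. Per the submitters' processing notes, cutadapt 2.3, UMI-tools, Bowtie2 2.3.5 and DESeq2 were used on hg38. For the strand setting, the counted part of the transcript and any removal of mouse reads, the sources used here give nothing.

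Tests used R 4.3.3 and edgeR 4.0.16 (filterByExpr, minimum count 10 and minimum total 15, TMM, robust quasi-likelihood), footprints and RNA apart. TE was the interaction of assay and treatment over 12 libraries. The main edgeR fits of footprints, RNA and TE were tested on simulated data, and the block and DESeq2 fits were not. SE is the change over the root of F. Alternatives were RLE scaling, DESeq2 1.42.0, no filter, replicate blocks and leaving out each library. Intervals on counts cover counting error only.

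Footprint and RNA libraries of 1 treatment share lysates, and those of the same number correlated at 0.217 to 0.440 (6 pairs) after group means were removed, against −0.381 to 0.119 for other numbers, over 4889 genes. The tumour block of TE rests on this. Named are members called in any fit, the highest and lowest member of each pathway in each comparison, MSH3, and other repair genes called in any fit; further members were added after their values were seen. Members and lists were chosen with earlier results of these data known. Symbols and positions are from RefSeq (GRCh38.p14), where 43 of 43 members matched and 39 had a promoter window. Some items are not reported here.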

Additional observations from a re-analysis of the deposited data

How the results depend on the processing

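Calls among members depended on the setting. Of 42 members in footprints, 14 changed sign with at least 1 library left out, as did 18 of 43 in RNA and 12 of 42 in TE, and under the other settings 2, 1 and 2 did. Reversals are given below for the genes that the naming rule chose. With DESeq2, 380 genes were called in footprints instead of 681, with 0 members and 1 other repair gene. In RNA, no filter on low counts gave 624 genes instead of 225, with 4 members (DDB2, TP53BP1, XRCC2 and XRCC3) and 4 other repair genes instead of 0. The replicate block by number gave 527 genes in RNA, with 4 members (the same 4) and 3 other repair genes. RLE scaling gave 0 members in RNA, and DESeq2 gave 2 other repair genes. In footprints, no filter gave 5 other repair genes instead of 3. In TE, the replicate block by tumour gave 864 genes instead of 193, with 1 member and 7 other repair genes, and the block by number gave 370 genes, 1 member and 2 other repair genes. Numbers gave no clear sign of pairing the treatments (same number −0.0947 to 0.181 over 6 pairs, other numbers −0.196 to 0.169 over 12). The mismatch footprint median was −0.0006 with DESeq2 and −0.0085 with no filter, since MSH3 enters in both, and its TE median was 0.0603 and 0.0353. The MSH6 footprint change was 0.0016 with RLE scaling and 0.0003 with the replicate block. The cause of the other shifts was not tested.

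With each library left out in turn, the genes called ranged from 185 to 726 in footprints, 11 to 396 in RNA and 60 to 146 in TE. The lowest values came without the first vehicle library in footprints and RNA, and without the third in TE. Members called ranged from 0 to 1 in footprints and in RNA (XRCC2 in place of XRCC3 without the second vehicle library), were 0 in TE throughout, and other repair genes from 0 to 5 in footprints, 0 to 1 in RNA and 0 to 1 in TE. Pathway footprint medians ranged from −0.1449 to −0.0432 (Fanconi), 0.1359 to 0.2163 (base excision) and −0.3157 to −0.1378 (checkpoint). RNA medians ranged from −0.1871 to 0.0230 (mismatch), −0.0103 to 0.0854 (base excision) and 0.1038 to 0.2519 (nucleotide excision). TE medians ranged from −0.1212 to 0.0210 (homologous recombination), −0.2348 to 0.0489 (end joining) and −0.2964 to 0.0262 (nucleotide excision). The ratio median of homologous recombination in vehicle ranged from −0.4963 to −0.4066. Changes that crossed 0 ranged in footprints from −0.0618 to 0.0295 (CHEK2), −0.0652 to 0.1245 (FANCA), −0.0782 to 0.0688 (MSH6), −0.2544 to 0.3638 (OGG1) and −0.0127 to 0.0557 (XRCC6). In RNA they ranged from −0.0923 to 0.1190 (ERCC3) and −0.2896 to 0.1008 (OGG1), and in TE from −0.2586 to 0.0088 (ATR) and −0.0170 to 0.1574 (MSH6). Footprint depth limits OGG1, XRCC3, XRCC4, LIG4, MRE11, PALB2 and MSH3, each with under 10 counts in at least 1 library.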
